A study of Mus musculus with 4 samples.

Results

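The response of mouse embryonic stem (ES) cells to FGF2 in place of an inhibitor of the kinase MEK was measured while signalling through the JAK kinases was inhibited. The cells were of the OG2 line, in which a transgene driven by Pou5f1 sequences encodes green fluorescent protein. They had been grown in KSR medium on gelatin, with the MEK inhibitor PD0325901 at 1 µM, the GSK3 inhibitor CHIR99021 at 3 µM and LIF at 1000 U/ml. The medium was then exchanged for 12 h. One array was hybridised with RNA of cells given 10 ng/ml FGF2 and 1 µM JAK inhibitor I, and one array with RNA of cells given PD0325901 and 1 µM JAK inhibitor I. These are called the FGF2 array and the PD0325901 array here. The sources used here give no dose of PD0325901 after the exchange, and neither CHIR99021 nor LIF is named for the new media, so that, as far as the labels say, both conditions also share the loss of these. The series' design text names only an FGF/ERK inhibitor and LIF for the culture before the exchange. FGF2 and the MEK inhibitor never occur together in these arrays, so the addition of FGF2 and the removal of the inhibitor cannot be told apart.

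Genes were taken into the comparison if a probe had a detection p-value under 0.01 on at least 1 of the 2 arrays. This held for 7907 of the 8341 genes detected on any of the 4 arrays of the series. Of these, 7065 were detected on both arrays, 500 on the FGF2 array only and 342 on the PD0325901 array only. The brightest probe stood for its gene, and 2057 genes had more than 1 detected probe. With 1 array per condition there is no replicate spread and no test of any difference. The error given after ± is the bead error, which is the standard error over the beads of a probe on each of the 2 arrays, combined on the log2 scale. It covers the reading of these arrays only, and neither culture, RNA preparation nor labelling. Fewer cells of a kind and less RNA per cell cannot be told apart in such bulk RNA.

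FGF ligands bind receptor tyrosine kinases that act through RAS, RAF and MEK on the kinases ERK1 and ERK2, and PD0325901 blocks this chain at MEK. In mouse ES cells, active ERK moves the cells out of the naive state and towards a formative state from which lineages are chosen, and it switches on its own inhibitors. LIF acts through JAK kinases and Stat3 to hold the naive state, and this arm was inhibited on both arrays.

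The 4 arrays detected 10626 to 10927 of 25697 probes, and the FGF2 array was the brightest before normalisation, with a median signal of 92.8 against 82.0 on the PD0325901 array. Markers of ES cells were bright on both: Dppa5a had a log2 signal of 14.39 on the FGF2 array and 14.47 on the PD0325901 array, and Pou5f1 had 12.60 on the FGF2 array and 12.62 on the PD0325901 array. Socs3, a target of Stat3, was low on both, at 5.79 with FGF2 and 5.49 with PD0325901, against 10.05 and 9.90 on the arrays of the same 2 treatments with LIF. Of 12 fibroblast and feeder cell markers, 8 were measured, and their median difference of 0.03 lay close to the median over all genes. No primitive streak marker was measured, of 8 with a probe, and the lineage genes Cdx2, Gata4, Sox1 and Mixl1 and the Myc family gene Mycn were not detected on either array. The streak gene T was not analysed here.

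Egr1, the ERK phosphatase genes Dusp4 and Dusp6, Bmp4 and Id1, and the transcription factors Etv4, Gbx2 and Pou3f1 were higher with FGF2, by 2.19-fold to at least 14.8-fold. Lefty1, Aqp3 and several genes of the naive state, among them Klf2, Dppa3 and Fbxo15, were lower by 1.58-fold to 2.65-fold. At 2-fold, 23 of 7907 genes (0.291%) were higher with FGF2 and 11 (0.139%) were lower. At 1.5-fold, 209 (2.64%) were higher and 187 (2.36%) were lower. These counts use the normalised signals, also where a gene was not detected on 1 of the 2 arrays. If such a gene is called only by its bound, the detected signal over the detection limit of the other array, 22 genes (0.278%) were at least 2-fold higher and 6 (0.0759%) lower, and 125 (1.58%) were at least 1.5-fold higher and 105 (1.33%) lower. Counts of list members are by normalised signals unless they are given by bounds, and a member past 1.5-fold by its signals but not by its bound is named with that bound. All log2 differences are FGF2 minus PD0325901. Their median over all genes was -0.01, and the 5th and 95th percentiles were -0.46 and 0.48. Without normalisation between arrays the median over all genes was 0.435, since the FGF2 array was brighter, and the directions given here are relative to the bulk of genes.

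**Figure D1:**
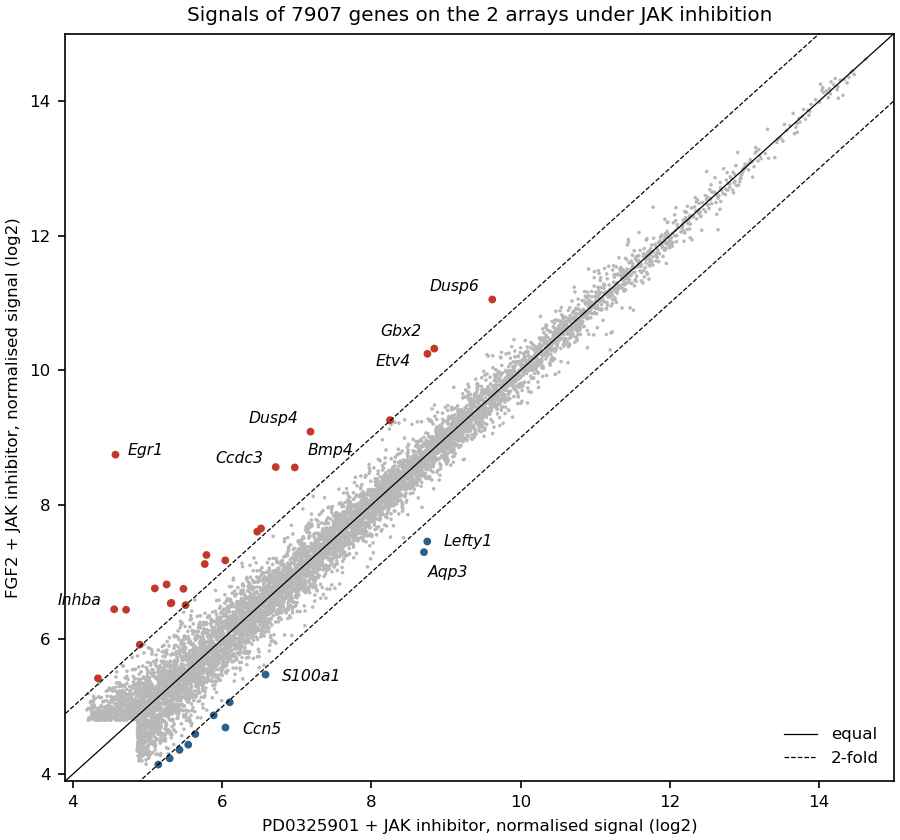
Normalised log2 signals of the 7907 genes, with the FGF2 array on the vertical axis and the PD0325901 array on the horizontal axis; each point is 1 gene, the solid line marks equal signals and the dashed lines 2-fold. Egr1 stands farthest from the line, and by these signals the 23 genes at least 2-fold higher with FGF2 are red and the 11 at least 2-fold lower are blue.

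Egr1, a zinc finger transcription factor that ERK switches on within minutes, had the largest difference of all genes. Its deposited signal was 591 on the FGF2 array and 82.7 on the PD0325901 array, where it was not detected. The normalised log2 signals were 8.75 and 4.57, a difference of 4.18 ± 0.17, and against the detection limit of the PD0325901 array the gene was at least 14.8-fold higher. Of the 23 listed immediate early genes of ERK signalling, which respond without new protein, 12 were measured. Of these, 4 were at least 1.5-fold higher and 1 was lower. Junb, a subunit of the AP-1 transcription factor, had 6.54 with FGF2 and 5.32 with PD0325901, a difference of 1.22 ± 0.19. Phlda1 had 9.23 with FGF2 and 8.32 with PD0325901, a difference of 0.91 ± 0.10. Myc, the growth regulator, had 5.61 with FGF2 and was not detected with PD0325901, so that it was at least 1.68-fold higher. Atf3, a stress-induced factor of the same list, lay the other way at 4.83 with FGF2 and 5.56 with PD0325901, close to the detection limit. Jun, Jund, Srf and Klf6 differed by between -0.24 and 0.13. The list thus held 1 gene far from the rest, and its median of 0.40 was 0.26 over the 10 members detected on both arrays and -0.01 when undetected genes were kept in. Egr2 and Fos were not detected on either array.

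The inhibitors that ERK signalling induces were next. Of 18 listed genes, 12 were measured, 4 were at least 1.5-fold higher with FGF2 and 0 lower, and their median difference was 0.40, against -0.01 over all genes. Dusp6, a cytoplasmic phosphatase that removes the activating phosphates of ERK, had a log2 signal of 11.05 with FGF2 and 9.62 with PD0325901. Its difference of 1.43 ± 0.08 was met by its other probes, at 1.51 and 1.54. Dusp4, the nuclear counterpart, had 9.09 with FGF2 and 7.18 with PD0325901, a difference of 1.90 ± 0.11, and its other probes gave 1.21 and 1.20. Both phosphatase genes were detected on both arrays, and the difference was many times the bead error. Spred1, which binds RAS pathway components and dampens them, had 7.94 with FGF2 and 7.08 with PD0325901, a difference of 0.86 ± 0.12. Spry4, a Sprouty family inhibitor of receptor tyrosine kinase signalling, had 7.13 with FGF2 and 6.27 with PD0325901. Errfi1, an inhibitor of the EGF receptor, and Dusp1 stayed under 1.5-fold, with differences of 0.54 ± 0.11 and 0.44 ± 0.10. Dusp7, Dusp8, Dusp10 and Dusp14 lay between -0.44 and -0.01, each within 2 bead errors of 0, and Dusp10 was not detected with FGF2. Spry2 was not detected on either array. Among the measured phosphatase genes of this list, only Dusp4 and Dusp6 were thus past 1.5-fold.

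The ETS family holds transcription factors that ERK phosphorylates and others that FGF signalling induces. Etv4 had 10.24 with FGF2 and 8.75 with PD0325901, a difference of 1.49 ± 0.10. Its close relative Etv5, at 9.18 with FGF2 and 9.08 with PD0325901, differed by 0.11 ± 0.17, which is within the bead error. Elf3, an epithelial ETS factor, was lower on all of its probes, at -0.75 ± 0.14 for the brightest and -1.04 and -0.72 for the others. Of 8 measured ETS genes, by bounds 1 was at least 1.5-fold higher (Etv4) and 1 lower, and the median was 0.17. Elk3 was past 1.5-fold by its normalised signals, but it was not detected with PD0325901 and its bound was at least 1.05-fold higher.

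The components of the pathway itself differed little. Of 30 listed FGF ligands, receptors and members of the ERK cascade, 11 were measured and 0 reached 1.5-fold, with a median of 0.02 and a range from -0.28 to 0.52. Fgf4, the FGF that ES cells make themselves, had 7.24 with FGF2 and 7.52 with PD0325901, a difference of -0.28 ± 0.17. Fgfr1, the FGF receptor gene measured, had 5.63 with FGF2 and 5.88 with PD0325901. Map2k2, which encodes one of the MEK kinases, differed by 0.02 ± 0.10, and Shc1, an adaptor of receptor signalling, by 0.17 ± 0.09. All but Fgf17, which was at 0.52 ± 0.17, lay between the 5th and 95th percentiles of all genes.

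**Figure D2:**
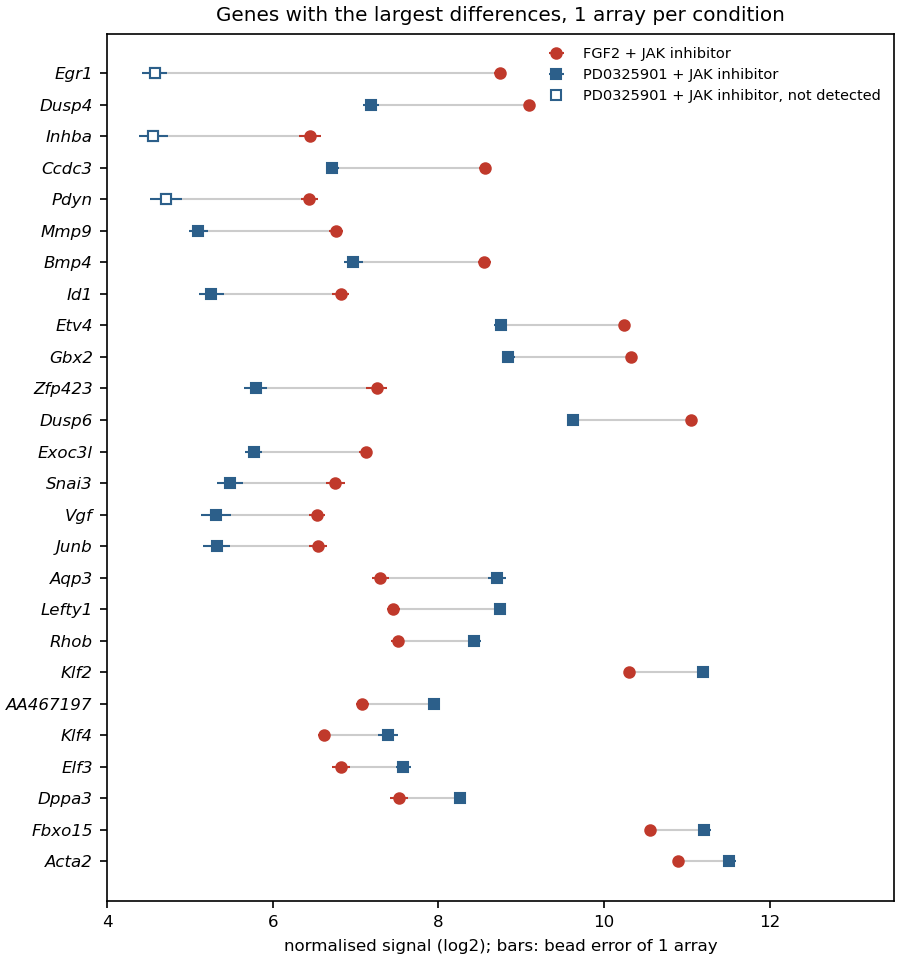
Log2 signals of the 16 genes with the largest positive differences and of 10 named genes with a mean log2 signal of at least 7 that were at least 1.5-fold lower, on the FGF2 array (circles) and the PD0325901 array (squares, open where not detected); bars are the bead error of 1 array. Egr1, Inhba and Pdyn were not detected with PD0325901, and the bead errors are short beside the distance between most pairs.

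Ligands of the TGF-beta family and their targets differed gene by gene. Bmp4, a ligand that acts on Smad1 and Smad5, had a log2 signal of 8.56 with FGF2 and 6.97 with PD0325901, a difference of 1.58 ± 0.14. Id1, a target of BMP signalling that blocks basic helix-loop-helix factors, had 6.82 with FGF2 and 5.26 with PD0325901, a difference of 1.56 ± 0.18. Smad6, an inhibitor induced by BMP, differed by 0.73 ± 0.20, and by 0.77 on its other probe. Bmp4, Id1 and Smad6 were the 3 of 9 measured BMP and Id genes past 1.5-fold, and 0 were lower. Id2 and Id3, the other Id genes measured, differed by 0.12 ± 0.26 and 0.06 ± 0.28, near the detection limit. The list's median was 0.06.

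On the activin and Nodal side, Inhba, which encodes the activin A subunit, had 6.45 with FGF2 and was not detected with PD0325901, and was at least 3.00-fold higher. Inhbb, the activin B subunit, had 6.34 with FGF2 and 5.67 with PD0325901, a difference of 0.68 ± 0.18. Lefty1, an inhibitor and a target of Nodal, lay the other way, at 7.46 with FGF2 and 8.75 with PD0325901, a difference of -1.29 ± 0.10. Its neighbour in function, Lefty2, had 8.26 with FGF2 and 8.34 with PD0325901 and differed by -0.08 ± 0.11. Nodal itself had 9.02 with FGF2 and 9.13 with PD0325901. Of 13 measured genes, 2 were at least 1.5-fold higher and 1 was lower, and the median lay close to that of all genes, so the list had no common direction.

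Promoters were read for the genes that differed most and were searched on both strands for short motifs. The window runs from 250 bases before to 50 bases after the gene start in RefSeq (mouse build GRCm38.p6), and 6474 of the 7907 genes had one. The E-box CACGTG occurred in 2 of the 14 genes at least 2-fold higher with a promoter (14.3%), against 12.2% of all measured genes and 8.09% of 27025 promoters. These 2 genes, Bmp4 and Gbx2, are shown with the E-box in capitals. Bmp4 lies at chr14:46390620-46390919 on the minus strand, with the E-box starting at -188 from the gene start, and Gbx2 at chr1:89931127-89931426 on the minus strand, with the E-box at -74.
Bmp4: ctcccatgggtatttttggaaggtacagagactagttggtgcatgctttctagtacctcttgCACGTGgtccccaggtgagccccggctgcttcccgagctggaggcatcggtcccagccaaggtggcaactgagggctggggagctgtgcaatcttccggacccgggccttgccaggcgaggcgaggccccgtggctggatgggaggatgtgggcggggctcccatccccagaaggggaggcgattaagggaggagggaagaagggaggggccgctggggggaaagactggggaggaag
Gbx2: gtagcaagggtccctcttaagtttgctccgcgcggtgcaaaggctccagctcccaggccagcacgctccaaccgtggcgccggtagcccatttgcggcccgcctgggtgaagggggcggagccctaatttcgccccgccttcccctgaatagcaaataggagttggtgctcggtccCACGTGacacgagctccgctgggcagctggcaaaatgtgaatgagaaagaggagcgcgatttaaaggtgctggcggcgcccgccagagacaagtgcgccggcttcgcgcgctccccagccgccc
Among the same 14 genes, 0 held the AP-1 motif TGANTCA, the cyclic AMP response element TGACGTCA or the ETS motif CCGGAAGT, 1 held a serum response element (Rnf128), 1 held the EGR motif GCGNGGGCG (Tnc), and 2 held the STAT motif TTCNNNGAA. In the promoters of all measured genes, 6.04% held the AP-1 motif, 3.74% the cyclic AMP response element, 9.99% the ETS motif, 1.67% a serum response element, 12.1% the EGR motif and 8.06% the STAT motif. A match is a description of these letters only.

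The naive state was marked by a split list. Of 21 listed naive pluripotency genes, 17 were measured, and by normalised signals 7 were at least 1.5-fold lower with FGF2 and 2 at least 1.5-fold higher. By bounds 6 were lower, without Spic. Across the processing settings the counts by signals ran from 1 to 7 lower and from 1 to 4 higher. Their median difference was -0.28, against -0.01 over all genes, and 13 of the 17 lay below 0. Without normalisation the list's median was 0.22, which is -0.22 relative to all genes. Klf2, a Krüppel-like factor that holds the naive state, had a log2 signal of 10.30 with FGF2 and 11.20 with PD0325901, a difference of -0.90 ± 0.08. Dppa3, a maternal factor that protects DNA methylation patterns, had 7.52 with FGF2 and 8.26 with PD0325901, a difference of -0.73 ± 0.13. Fbxo15, an F-box gene used as a reporter of the ES cell state, had 10.55 with FGF2 and 11.21 with PD0325901, a difference of -0.66 ± 0.09. Each of these 3 genes was detected on both arrays and had 1 detected probe. AA467197, a gene without an established name, had 7.08 with FGF2 and 7.95 with PD0325901, a difference of -0.87 ± 0.11. Crxos, a homeobox gene, was dim, at 5.48 with FGF2 and 6.17 with PD0325901. Spic, an ETS-related gene, was not detected with FGF2 and had 5.03 with PD0325901, so that it was at least 1.18-fold lower.

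Klf4 counted among the 7 lower genes through its brightest probe, at 6.62 with FGF2 and 7.39 with PD0325901, a difference of -0.78 ± 0.14. Its other detected probes gave 0.19 and -0.01, so the probes disagreed, and the mean over probes was -0.20. Nanog, the homeobox factor of the naive core, had 10.34 with FGF2 and 10.90 with PD0325901, a difference of -0.56 ± 0.08, which is just under 1.5-fold. Esrrb, Zfp42, Nr5a2 and Dppa5a differed by between -0.16 and 0.16, and Tbx3 by -0.28 ± 0.11 on its brightest probe and by 0.15 and 0.01 on the others. Prdm14 was not detected on either array, and Tfcp2l1 was not analysed here.

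Gbx2 and Klf5 were the naive genes on the high side. Gbx2 had 10.32 with FGF2 and 8.84 with PD0325901, a difference of 1.48 ± 0.10, and was 1 of the 10 genes with the largest positive differences. Klf5 had 11.50 with FGF2 and 10.91 with PD0325901, a difference of 0.59 ± 0.07. The list's members therefore spanned from -0.90 to 1.48.

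The general pluripotency genes, which naive and later epiblast cells share, had no member past 1.5-fold among 8 measured, and a median of 0.23. Pou5f1 differed by -0.02 ± 0.11 and Sox2 by 0.19 ± 0.15, and the other probe of Sox2 gave -0.30. Sall4 and Utf1 were higher by 0.26 ± 0.12 and 0.39 ± 0.12. Cdh1, the epithelial cadherin, differed by -0.09 ± 0.13.

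Genes of the formative and primed epiblast had the highest median of the lists, 0.47, and of 12 measured members 4 were at least 1.5-fold higher by normalised signals and 0 lower. By bounds 3 were higher, without Sox4, and with undetected genes kept in the list's median was 0.22. Pou3f1, also called Oct6, an early factor of the exit from the naive state, had a log2 signal of 7.65 with FGF2 and 6.52 with PD0325901, a difference of 1.13 ± 0.15. Otx2, a homeobox factor that directs Pou5f1 to new enhancers in epiblast-like cells, had 8.13 with FGF2 and 7.22 with PD0325901, a difference of 0.91 ± 0.12. Tcf15, a helix-loop-helix factor of cells about to leave the naive state, had 9.27 with FGF2 and 8.45 with PD0325901, a difference of 0.82 ± 0.15. Each of these 3 factors was detected on both arrays and exceeded its bead error more than 3 times. Sox4 was detected with FGF2 only and was at least 1.21-fold higher. Dnmt3b, a de novo DNA methyltransferase, had 12.05 with FGF2 and 11.59 with PD0325901, a difference of 0.46 ± 0.08, and 0.06 on its other probe. Dnmt3l, its cofactor, differed by 0.20 ± 0.08. Zic2, a zinc finger factor of the primed state, lay the other way at -0.39 ± 0.21. Fgf5 and Dnmt3a were not detected on either array.

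**Figure D3:**
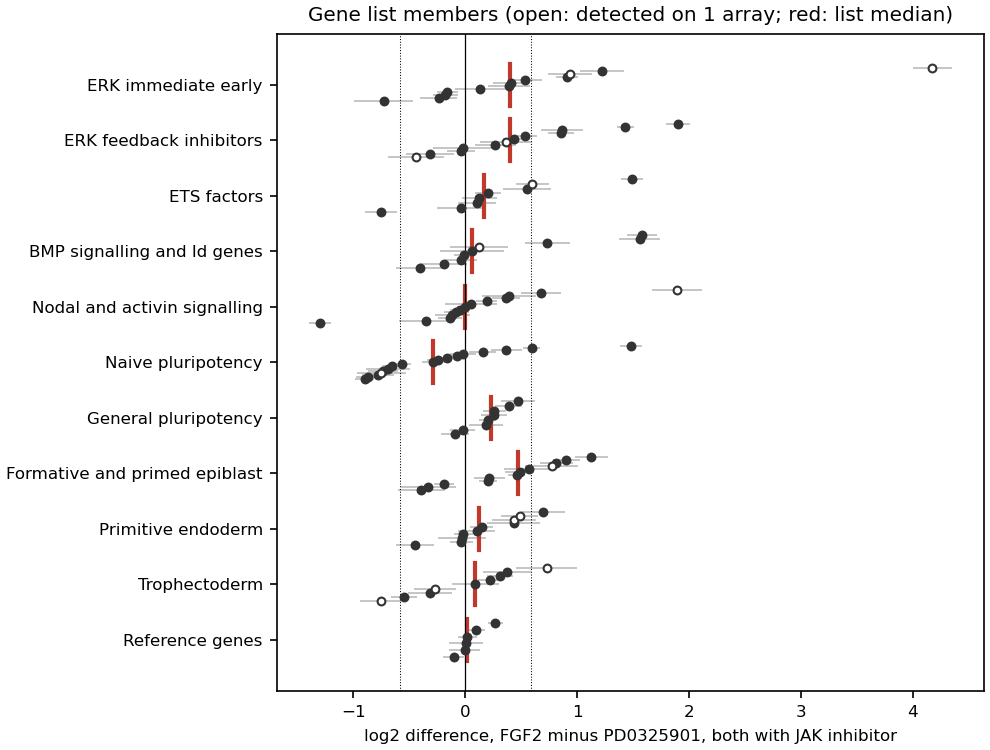
Log2 differences (FGF2 minus PD0325901, both with JAK inhibitor) of the measured members of 11 gene lists; each point is 1 gene with its bead error, open where it was detected on 1 of the 2 arrays, red bars are list medians and dotted lines mark 1.5-fold. The medians run from -0.28 for naive pluripotency to 0.47 for the formative and primed epiblast, and Egr1 lies far to the right of its list.

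Other lineages were close to the background, which over all genes was 2.64% at least 1.5-fold higher and 2.36% lower by normalised signals. Of 10 measured primitive endoderm genes 1 was at least 1.5-fold higher, Gata6, the endoderm regulator, at 5.89 with FGF2 and 5.20 with PD0325901 (0.70 ± 0.20), and the list's median was 0.13. Of 9 measured trophectoderm genes 1 was higher (Krt7, not detected with PD0325901, at least 1.62-fold), 0 were lower by bounds (Gata2, not detected with FGF2, was at least 1.49-fold lower), and the median was 0.09. The keratins Krt8 and Krt18, both bright, differed by 0.23 ± 0.11 and 0.31 ± 0.11. Of 11 listed neuroectoderm genes 2 were measured: Nes, an intermediate filament of neural progenitors, differed by 0.53 ± 0.21, and Tubb3, a neuronal tubulin, was not detected with FGF2 and was at least 1.24-fold lower. Of the 2-cell-like and germ cell genes 3 were measured, with 0 past 1.5-fold and a median of 0.11.

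The JAK-STAT arm differed little between the 2 arrays, on both of which it was inhibited. Of 15 measured targets and components 0 passed 1.5-fold, and the median was 0.05. Socs3 differed by 0.29 ± 0.18. Stat3, which is both the effector and a target of this arm, had 7.02 with FGF2 and 6.47 with PD0325901, a difference of 0.55 ± 0.17, while its other probes gave 0.38 and -0.23.

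Several secreted and cell cycle genes were past the threshold. Mmp9, a gelatinase, had 6.76 with FGF2 and 5.10 with PD0325901, a difference of 1.66 ± 0.14. Timp1, a secreted inhibitor of such proteases, had 10.23 with FGF2 and 9.55 with PD0325901, a difference of 0.68 ± 0.08, and 0.63 on its other probe. Plaur, the urokinase receptor, differed by 0.72 ± 0.20. Of the list of extracellular proteases and inhibitors 8 genes were measured, and these were the 3 past 1.5-fold, with 0 lower. The list's median was 0.31 (-0.12 when undetected genes were kept in), while Timp2 and Timp3 lay at -0.30 ± 0.12 and -0.20 ± 0.12. Among 11 measured genes of the G1 phase, Ccne1, which encodes cyclin E1 and drives entry into S phase, had 9.23 with FGF2 and 8.28 with PD0325901, a difference of 0.96 ± 0.13. Ccnd2, a D cyclin, was detected with FGF2 only and was at least 1.67-fold higher. On their brightest probes Ccnd1, which was listed with the Wnt targets, and Ccnd3 stayed under 1.5-fold, at 0.37 ± 0.11 and 0.21 ± 0.09. The other probes of Ccnd1 gave 0.60, which is past 1.5-fold, and 0.47, and that of Ccnd3 gave 0.50. The median of the G1 list was -0.14 (0.29 without normalisation, which is -0.14 relative to all genes). The CDK inhibitor gene Cdkn1a lay at -0.22 ± 0.10, and at -0.36 and -0.50 on its other probes. Axin2, a target of beta-catenin, differed by 0.83 ± 0.14. By brightest probes it was the 1 member past 1.5-fold of 6 measured Wnt targets and components, which include Ccnd1. The median of these 6 genes was 0.01.

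Further genes had large differences. Ccdc3, which encodes a secreted coiled-coil protein, had 8.56 with FGF2 and 6.72 with PD0325901, a difference of 1.84 ± 0.11. Pdyn, the precursor of the opioid dynorphins, had 6.44 with FGF2 and was not detected with PD0325901, so that it was at least 2.99-fold higher. Zfp423, a zinc finger partner of Smads, had 7.26 with FGF2 and 5.79 with PD0325901, a difference of 1.47 ± 0.19, and 0.71 on its other probe. The matrix glycoprotein gene Tnc had 7.18 with FGF2 and 6.04 with PD0325901, and 0.67 on its other probe. Vgf, a neuropeptide precursor, Exoc3l, Snai3, a Snail family factor, and Robo4, a receptor of the Roundabout family, differed by 1.13 to 1.36, all detected on both arrays. On the low side, Aqp3, a water and glycerol channel, had 7.30 with FGF2 and 8.71 with PD0325901, a difference of -1.41 ± 0.15, the largest negative difference of all genes. Rhob, a small GTPase, had 7.51 with FGF2 and 8.43 with PD0325901, a difference of -0.92 ± 0.11. S100a1, a calcium-binding protein gene, had 5.48 with FGF2 and 6.58 with PD0325901, and S100a13 of the same family 6.61 with FGF2 and 7.32 with PD0325901. Of 6 measured S100 genes these 2 were past 1.5-fold, and the list had the lowest median, -0.45, while S100a6 lay at 0.52 ± 0.13. Ccn5, a matrix-associated signalling gene, was not detected with FGF2, had 6.04 with PD0325901 and was at least 2.37-fold lower. Acta2, the smooth muscle actin, differed by -0.62 ± 0.09, and by -0.75, -0.69 and -0.72 on its other probes.

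The remaining lists held few genes past 1.5-fold, and over all genes 2.64% were that much higher and 2.36% lower by normalised signals. Glycolysis and hypoxia had 1 of 16 higher (Pdk1, a kinase that restrains pyruvate oxidation, 0.65 ± 0.12) and a median of 0.06. The Myc network had 0 of 10 past 1.5-fold by bounds, with Mxd3, not detected with FGF2, at least 1.06-fold lower, and a median of -0.01. Epithelial and mesenchymal genes had 1 of 10 higher (Snai3) and 0 lower by bounds, with Snai1, not detected with FGF2, at least 1.36-fold lower, and a median of -0.06. By brightest probes no gene passed 1.5-fold among 5 genes of DNA methylation (median 0.08), 9 of cholesterol synthesis (0.01) and 8 p53 targets (0.19). The same held for 15 genes of the Atf4 and unfolded protein response (-0.02) and 6 of heat shock (0.02). It also held for 7 genes of interferon and MHC class I (-0.27) and 6 reference genes (0.01). Another probe was past 1.5-fold for Gadd45a of the methylation list (0.62) and for Bbc3 of the p53 targets (0.88, against -0.13 on its brightest). Gusb, a reference gene, gave -0.66 and 0.41 on its other probes. In the interferon list 6 of 7 lay below 0, with B2m, the light chain of MHC class I, at -0.50 ± 0.16. Without normalisation the median of the interferon list was 0.22, which is -0.21 relative to all genes. Of the 8 fibroblast markers, Acta2 was at least 1.5-fold lower, and Lum, not detected with FGF2, was at least 1.47-fold lower. Gapdh differed by -0.04 ± 0.06, and by -0.02 on its other probe. Actb differed by 0.27 ± 0.07, and by 0.60 and 0.30 on its other probes, the first of which is past 1.5-fold.

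The promoters of 3 lower genes are shown with the EGR motif, which is bound by the factor with the largest difference, Egr1. Whether Egr1 binds or controls these genes was not tested. Klf4 was past 1.5-fold on its brightest probe only, with 0.19 and -0.01 on the others. The EGR motif GCGNGGGCG occurred in 4 of 22 promoters of genes at least 1.5-fold lower with a mean log2 signal of at least 7 (18.2%), in 3 of 31 of those at least 1.5-fold higher at that brightness (9.68%), in 12.1% of all measured genes and in 6.27% of all promoters. Without this limit on brightness, which was chosen after seeing the data, the shares were 18 of 140 lower genes (12.9%) and 18 of 161 higher genes (11.2%), close to that of all measured genes. The 4 genes were Aqp3, Enoph1, Klf2 and Klf4, and the capitals mark the motif on either strand. Klf2 lies at chr8:72318812-72319111 on the plus strand, with the motif starting at -199 from the gene start. Klf4 lies at chr4:55532426-55532725 on the minus strand, with sites at -211 and -194, and Aqp3 at chr4:41098134-41098433 on the minus strand, with the motif at -72.
Klf2: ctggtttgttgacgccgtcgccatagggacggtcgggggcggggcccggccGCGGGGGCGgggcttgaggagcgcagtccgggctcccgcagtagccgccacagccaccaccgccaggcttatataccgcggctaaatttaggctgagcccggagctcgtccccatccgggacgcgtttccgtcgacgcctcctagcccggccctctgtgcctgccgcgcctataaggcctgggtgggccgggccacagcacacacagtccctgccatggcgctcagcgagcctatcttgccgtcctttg
Klf4: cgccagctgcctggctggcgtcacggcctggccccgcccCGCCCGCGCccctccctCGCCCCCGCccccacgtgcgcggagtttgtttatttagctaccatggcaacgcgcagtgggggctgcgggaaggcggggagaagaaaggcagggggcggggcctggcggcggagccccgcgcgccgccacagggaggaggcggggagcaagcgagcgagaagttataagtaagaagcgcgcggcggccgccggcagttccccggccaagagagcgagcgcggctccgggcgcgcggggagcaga
Aqp3: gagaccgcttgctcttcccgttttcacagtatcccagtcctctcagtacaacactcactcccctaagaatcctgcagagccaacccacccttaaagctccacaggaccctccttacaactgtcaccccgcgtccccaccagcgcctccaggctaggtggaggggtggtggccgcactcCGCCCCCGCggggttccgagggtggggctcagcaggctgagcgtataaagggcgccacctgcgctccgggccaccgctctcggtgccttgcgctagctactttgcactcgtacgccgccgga
The Klf4 window also holds the E-box CACGTG, left in lower case, as did 7 of the 22 promoters (31.8%), against 4 of 31 on the high side (12.9%). Without the limit on brightness the E-box was in 17 of 140 lower genes (12.1%) and 16 of 161 higher genes (9.94%), against 12.2% of all measured genes. These shares rest on few promoters and have no test.

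How firmly a gene's difference can be read depended on its brightness. Of the 4011 genes with a mean log2 signal of at least 7, a limit chosen after seeing the data, 40 were at least 1.5-fold higher (0.997%) and 27 lower (0.673%). Under a mean log2 signal of 6, 141 of 2497 genes were at least 1.5-fold higher and 129 lower. At 10 and over, 3 of 945 were higher (Dusp6, G3bp2 and Klf5) and 5 were lower (Acta2, Cd9, Fbxo15, Klf2 and Upp1), of which G3bp2, Cd9 and Upp1 are named after their values were seen. The median bead error of a difference was 0.211 in the dimmest bin and 0.087 in the brightest. By normalised signals, all 23 genes on the high side and all 11 on the low side at 2-fold were past 3 bead errors, as were 770 of all 7907 genes. Since these genes were selected by the size of their difference, this is no separate evidence for it. Of the 23 genes, 4 were not detected with PD0325901, and 6 of the 11 were not detected with FGF2. Of these, Rnf128 was at least 1.48-fold higher by its bound, and Calhm5, Gpr27, Slc2a6, Wnt2 and Zfp74 were at least 1.27-fold to 1.79-fold lower, so their 2-fold calls rest on signals below detection.

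**Figure D4:**
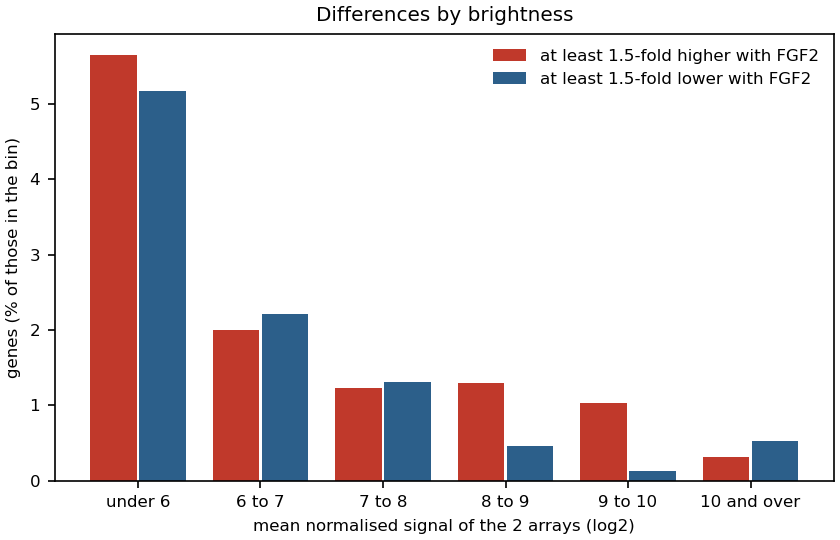
Share of genes, in percent of those in each bin of mean normalised log2 signal, that were at least 1.5-fold higher (red) or lower (blue) with FGF2 under JAK inhibition. The bins hold 2497, 1399, 1218, 1075, 773 and 945 genes, and the share past 1.5-fold is largest in the dimmest bin.

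The same exchange was made with LIF in place of the JAK inhibitor on the other arrays of the series, which share no array with the comparison above. All 4 arrays were normalised together, and the difference between the 2 settings has no test. Over the same 7907 genes, 413 (5.22%) were at least 1.5-fold higher with FGF2 in LIF and 255 (3.22%) were lower. Of the 209 genes higher under JAK inhibition, 63 were also at least 1.5-fold higher in LIF, which is 30.1% of the first list and 15.3% of the second. Of the 187 lower genes 43 were also lower in LIF, which is 23.0% and 16.9%. At 2-fold, 17 of the 23 higher genes were also 2-fold higher in LIF (73.9%), and 3 of the 11 lower genes were also 2-fold lower (27.3%). Over all 7907 genes, 56 (0.708%) were at least 2-fold higher in LIF and 39 (0.493%) lower, so that the shared genes made up 30.4% and 7.7% of the lists in LIF. Across genes, which are not independent replicates, Pearson's r between the 2 differences was 0.219 in the 2497 dimmest genes and 0.55 in the 945 brightest.

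Of the 23 genes at least 2-fold higher under JAK inhibition, 20 were at least 1.5-fold higher in LIF. Dusp6 differed by 1.43 under JAK inhibition and 1.57 in LIF, Etv4 by 1.49 and 1.43, Ccdc3 by 1.84 and 1.86, Mmp9 by 1.66 and 1.60, and Gbx2 by 1.48 and 1.60. Egr1 differed by 4.18 under JAK inhibition, where the PD0325901 array had no detectable signal, and by 3.36 in LIF, where both arrays detected it. Id1 differed by 1.56 under JAK inhibition and 2.39 in LIF, and its level was lower under JAK inhibition with either treatment, at 6.82 with FGF2 and 5.26 with PD0325901, against 8.85 with FGF2 and 6.46 with PD0325901 in LIF.

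Some other genes, among them Otx2, Ccne1, Timp1, Tnc and Klf2, were past 1.5-fold under JAK inhibition but not in LIF, a difference that has no test. Otx2 differed by 0.91 under JAK inhibition and -0.20 in LIF, with log2 signals in LIF of 6.79 with FGF2 and 6.98 with PD0325901. Ccne1 differed by 0.96 under JAK inhibition and 0.33 in LIF, Timp1 by 0.68 and 0.07, and Tnc by 1.13 and 0.24. On the low side, Dppa3 differed by -0.73 under JAK inhibition and -1.47 in LIF, Crxos by -0.69 and -1.54, and Lefty1 by -1.29 and -1.84, so these 3 were lower in both, with the larger difference in LIF. Klf2 differed by -0.90 under JAK inhibition and -0.54 in LIF, and Nanog by -0.56 and -0.61. The fibroblast markers Dcn and Lum, at -2.16 and -1.95 in LIF, differed by -0.05 and -0.70 under JAK inhibition. Lum was not detected with FGF2 in either setting, so both of its values rest on signals below detection. Its bound under JAK inhibition was at least 1.47-fold lower. The median of the fibroblast list was 0.03 under JAK inhibition and -0.42 in LIF, that of the naive list -0.28 and -0.34, and that of the formative list 0.47 and 0.50.

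**Figure D5:**
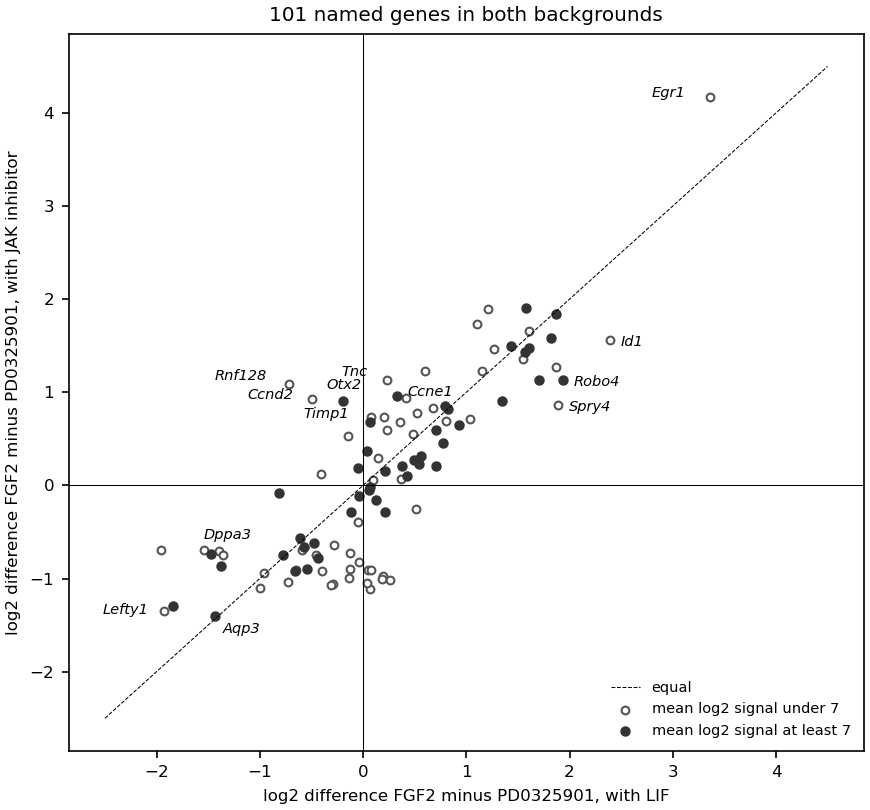
Log2 differences (FGF2 minus PD0325901) of the 101 named genes under JAK inhibition (vertical) and in LIF (horizontal); filled points have a mean log2 signal of at least 7 on the 2 arrays under JAK inhibition, and the dashed line marks equal differences. Egr1 lies at 4.18 and 3.36, Otx2 at 0.91 and -0.20, and Lefty1 at -1.29 and -1.84.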

How the data were processed

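Total RNA of OG2 mouse ES cells under 4 conditions was amplified, labelled with Cy-3 and hybridised to Illumina bead arrays, 1 array per condition. Per the labels' protocols, 400 ng of RNA entered a 12 h in vitro transcription. BeadStudio was used, per the submitters' processing notes, in a version that the sources used here do not give. Each deposited table gave, per the file headers, every probe's signal as an intensity, its standard error over beads and its detection p-value. No background subtraction or normalisation was seen in the deposited signals: the lowest were 64.4 to 71.2, and array medians were unequal. Steps of 1/798 in the deposited p-values were taken to mean 798 negative controls. The authors' value table held processed intensity values by steps that the sources used here do not give. Its medians were 71.0 on all arrays, and it served as an alternative.

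Signals were background-corrected with nec in limma 3.58.1 (R 4.3.3), from the detection p-values (offset 16), taken to log2 and quantile-normalised over the 4 arrays. These log2 values were computed here from the deposited intensities. Probes were named through the platform annotation, brought up to date with RefSeq (GRCm38.p6): 23978 of 25697 had 1 symbol, 0 had several and 1719 had none. The probe with the highest mean on the 2 arrays stood for its gene. Where a gene was detected on 1 array only, "at least" gives the detected signal over the other array's detection limit, or over its own signal there if higher. The number of arrays limits the precision. Python 3.11.15 with pandas 2.3.3 did the rest. Folds set into bright probes of a simulated array were checked to be recovered by the same steps, on average and within a set tolerance. Only bead noise was added there, so this check does not cover dim genes, where most 1.5-fold calls lie.

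The named genes were the 20 largest differences in each direction, list members at least 1.5-fold either way, and a set of 64 signalling and pluripotency genes of which 51 were measured, 101 genes in all. Further list members are named for context, as are genes named through a promoter motif, and these were chosen after their values were seen. The 30 gene lists are those given in the report. The members and lists were chosen with earlier results of these data known, so that no list's direction is independent evidence. The alternatives were no background correction, an offset of 50, quantile normalisation over the 2 arrays, scaling to the median, no normalisation, detection on both arrays, no detection filter, the mean of a gene's probes and the authors' value table. Probe sequences were not used.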

Additional observations from a re-analysis of the deposited data

Results flagged for a closer look

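With 1 array per condition, no difference between the JAK inhibitor and LIF settings was tested. Over all genes, by normalised signals, 2.64% were at least 1.5-fold higher with FGF2 and 2.36% lower under JAK inhibition. In LIF the shares were 5.22% and 3.22%. By the same signals, 8 of the 7907 genes were at least 1.5-fold higher with FGF2 in one setting and at least 1.5-fold lower in the other. Of these, 7 were not detected on at least 1 array, and when signals below detection are replaced by the detection limit only 2 of the 8 (Enpp4 and Rhbdf2) stay past 1.5-fold in both settings, so at least 1 of the 1.5-fold differences of each of the other 6 rests on signals below detection. Rnf128, an E3 ubiquitin ligase gene, had a log2 difference of 1.087 under JAK inhibition and -0.715 in LIF. Fam171a2 had 0.789 under JAK inhibition and -0.716 in LIF. Mmp3, a stromelysin, had 0.587 and -0.999, and Rhpn1 had 0.607 and -0.655. Enpp4 had 0.62 under JAK inhibition and -0.742 in LIF, and was the 1 gene of the 8 detected on all 4 arrays. The other way round, Rhbdf2 had -0.84 under JAK inhibition and 0.622 in LIF, Aym1 had -0.656 and 0.638, and Xylb had -0.608 and 0.677. With the detection limit in place, Rnf128 had 0.56 under JAK inhibition and -0.64 in LIF, and Mmp3 and Rhpn1 had 0.0 under JAK inhibition. All 8 had log2 signals of at most 6.21 on every array, near the detection limits of 4.80 to 4.86.

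One probe without a gene symbol, ILMN_2757617, was 1.92 higher with FGF2 on the log2 scale under JAK inhibition. Its deposited signal was 167.6 on the FGF2 array and 80.5 on the PD0325901 array, where it was not detected. In LIF its signal was 184.6 with FGF2 and 111.9 with PD0325901. It was the 1 probe past 2-fold among 673 detected probes without a symbol, of which 17 were at least 1.5-fold higher and 12 lower. Over all 7907 named genes, 2.64% were that much higher and 2.36% lower. Its gene is not named here.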

How the results depend on the processing

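No paired analysis was possible because each condition had 1 array. The counts depended on the processing, and they are given as 2-fold higher, 2-fold lower, 1.5-fold higher and 1.5-fold lower, which were 23, 11, 209 and 187 in the report. Without background correction they were 7, 2, 33 and 11, and with an offset of 50 they were 12, 2, 46 and 23, since both settings shrink the differences of dim genes. With scaling to the median they were 22, 33, 150 and 340, and without normalisation 155, 1, 2047 and 32. With genes detected on 1 array called by their bound, which was added after seeing the data, they were 22, 6, 125 and 105. With detection required on both arrays they were 19, 5, 112 and 93, and with the authors' value table, where missing values were set to 6, they were 348, 267, 680 and 593. Among genes with a mean log2 signal of at least 7, which was added after seeing the data, they were 9, 2, 40 and 27. The share of higher genes among those past 1.5-fold was 52.8% in the report, 75.0% without background correction, 66.7% with an offset of 50, 30.6% with scaling to the median and 98.5% without normalisation; the cause was not tested beyond these settings. Quantile normalisation over the 2 arrays, no detection filter and the mean of a gene's probes kept each count within 1.5 times. Of the 20 leading genes on each side, all 40 kept their direction in every setting that gave a value, and 19 of the higher genes (all but Rnf128) but only 2 of the lower genes (Aqp3 and Lefty1) stayed at 1.5-fold in each of them. Over 884 recomputed values of named genes, 708 lay within 2 bead errors of the value in the report. Of 261 recomputed list medians, 229 lay within 2 times the named genes' median bead error. Most named genes had 1 detected probe. For these, detection on both arrays and the mean of probes cannot change a value, so part of the 708 is the same by construction. Arrays limit the precision through their number, and dim probes through their distance from background.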

Other observations

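Further genes were lower with FGF2 under JAK inhibition, of which Cd9 and Upp1 were chosen after their values were seen. H2-T23, a non-classical MHC class I gene, had a log2 signal of 6.21 with FGF2 and 7.11 with PD0325901, a difference of -0.90 ± 0.18, and -0.65 in LIF. Cavin3, a coat protein of caveolae, had 5.07 with FGF2 and 6.10 with PD0325901, a difference of -1.03 ± 0.20, and -0.72 in LIF. Actc1, the cardiac actin, had 5.62 with FGF2 and 6.56 with PD0325901, a difference of -0.94 ± 0.17, and -0.96 in LIF. Cd9, a tetraspanin, and Upp1, a uridine phosphorylase, were among the brightest lower genes, at -0.62 and -0.66, and the other probes of Upp1 gave -0.64 and -0.50.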
